A study of Saccharomyces cerevisiae with 15 samples.

Results

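The comparison described here set budding yeast (Saccharomyces cerevisiae) that made active human IRAK4 against yeast with the empty plasmid. It used 6 of the 15 arrays of the study, the 3 labelled IRAK4 and the 3 labelled Control, chosen by their titles. All cells were of the haploid laboratory strain YPH499 (mating type a, with mutations in his3, leu2, trp1, ura3, lys2 and ade2), and all carried pEG(KG), a multicopy plasmid whose GAL1 promoter is switched on by galactose and whose inserts are made as glutathione S-transferase (GST) fusions. In IRAK4 the plasmid held the human kinase, in IRAK4(KD) it held a catalytically inactive form of that kinase, and in Control it held no kinase, so the Control cells are yeast that can make GST alone. Every culture had 18 h in medium with raffinose at 30 °C, was diluted to an optical density of 0.3 and then had 6 h in medium with galactose. Human IRAK probes are absent from the arrays, and how much kinase each culture made was not measured here. The IRAK4(KD) arrays were used for a test of the difference between the active and the inactive kinase. In all, 5449 yeast genes were tested.

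IRAK4 is a serine/threonine kinase that human cells use to pass on signals of Toll-like receptors and of the interleukin-1 receptor. Yeast has none of these receptors. When yeast cells are stressed or grow slowly, the transcription factors Msn2 and Msn4 switch on a large set of protective genes, and protein kinase A (PKA) holds these factors back while nutrients are plentiful. The same cells usually lower the genes for making ribosomes. Glucose-repressed genes, which serve ethanol, acetate and fatty acid use, are under the kinase Snf1 and the activators Adr1 and Cat8 instead.

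Values are log2 array signals as the authors normalized them, and a difference is IRAK4 minus Control on that scale, ± the standard error of the limma contrast, with 3 arrays in each group. A gene is called, and is said to rise or fall, where its Benjamini-Hochberg adjusted p from limma over all 5449 genes was under 0.05. Levels of different genes are not compared with each other, since each probe set has its own response. The median log2 value of an array was 8.76 to 8.87 in IRAK4 and 8.72 to 8.74 in Control. Replicate arrays correlated across genes at 0.993 or more in IRAK4 and at 0.994 or more in Control. The spread of each gene was estimated from all 15 arrays. IRAK1 replicate 1, which correlated at 0.968 with the other IRAK1 arrays, enters that spread and so the number of calls. The labels describe the replicates as biological without saying more, and whole cultures were measured, so a change in the share of cells in some state and a change in RNA per cell cannot be told apart.

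The marker genes of the strain and the plasmid were read first. HIS3, which is deleted in the strain, read 3.58, 3.49 and 3.50 in IRAK4, against 3.49, 4.02 and 3.87 in Control, near the low end of the arrays. URA3, a selection marker that the plasmid carries, read 13.74, 13.73 and 13.69 in IRAK4, against 13.74, 13.65 and 13.60 in Control, and was not called. GAL1, whose promoter drives the kinase, read 13.41, 13.46 and 13.44 in IRAK4, against 13.37, 13.43 and 13.40 in Control, so the arrays showed no difference in it (0.04 ± 0.07). URA3 and GAL1 both lay near the top of the arrays, where a difference may not show. Of 9 genes of the galactose list 4 rose (44.4%, against 28.2% of all genes), PGM2 and GCY1 among them. In the same list 1 fell (11.1%, against 16.4%), or 0 without IRAK4 replicate 2 or Control replicate 3. STE2, the pheromone receptor of a cells, read 8.87, 8.93 and 9.17 in IRAK4, against 9.35, 9.01 and 9.07 in Control. STE3, the receptor of alpha cells, rose by 0.66 ± 0.15, with values of 6.44, 6.19 and 6.57 in IRAK4, against 5.75, 5.58 and 5.89 in Control. Of 10 mating type and ploidy genes 1 rose (10%, against 28.2% of all genes) and 4 fell (40%, against 16.4%). Those that fell were IME1, the initiator of meiosis, and MFA1, MFA2 and BAR1, further genes of a cells. The 4 became 2 without IRAK4 replicate 2 or 3 or Control replicate 2. ASG7 and AGA2, also genes of a cells, lay above Control without being called (0.28 and 0.18). ASG7 was called higher without IRAK1 replicate 1 or IRAK4 replicate 1. Genes of a cells thus did not all move the same way.

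Limma called 2432 of the 5449 genes, 44.6% of all tested, 1539 higher (28.2%) and 893 lower (16.4%) in IRAK4. Most calls were small. Of the genes called higher, 778 differed by under 0.5 and 584 by 0.5 to 1, and of those called lower 477 and 309. A difference of at least 2-fold was seen in 284 called genes (5.21% of all tested), 177 higher (3.25%) and 107 lower (1.96%). In 3363 genes (61.7%) the 3 IRAK4 arrays did not overlap with the 3 Control arrays. Differences over 2 log2 units, that is over 4-fold, were found in 32 genes called higher and 19 called lower. The excess of higher calls depended on scaling. They made up 63.3% of the calls on the deposited values. Centring the arrays on their medians gave 1285 higher and 1166 lower calls (52.4% higher), and quantile normalization gave 1222 and 1173 (51.0% higher). The median difference over all genes was 0.076 as deposited and 0.006 after centring. No chromosome was shifted as a whole, since the medians of the 16 chromosomes lay between 0.029 (chromosome II) and 0.115 (chromosome I).

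**Figure D1:**
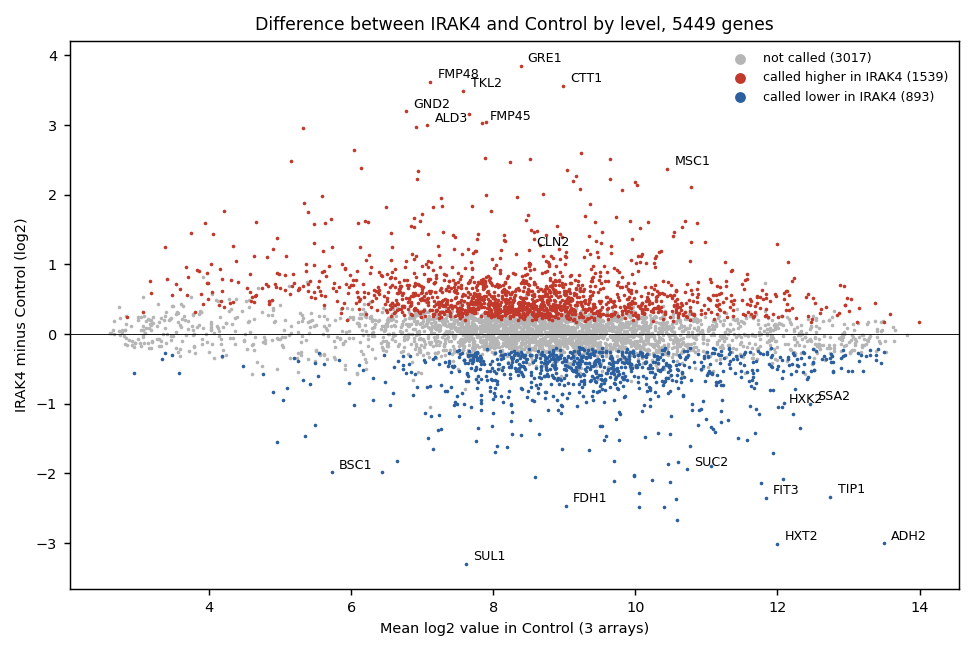
Mean log2 value of each of the 5449 genes in Control (horizontal axis, 3 arrays) against the difference IRAK4 minus Control (vertical axis, log2). Genes called higher (1539, red) and lower (893, blue) stand out from the 3017 not called (grey), and labelled genes include GRE1 at 3.85 and ADH2 at -3.01.

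Genes of several kinds were among the strongest rises. GRE1, a hydrophilin (a small, very water-loving protein made under osmotic stress), read 12.23, 12.28 and 12.20 in IRAK4, against 7.91, 8.55 and 8.68 in Control, a 14.4-fold difference. FMP48, a putative protein kinase of the mitochondrion, read 10.75, 10.72 and 10.71 in IRAK4, against 7.31, 7.24 and 6.78 in Control. RTC3, a protein with a role in RNA metabolism, read 10.68, 10.93 and 10.83 in IRAK4, against 7.56, 7.77 and 7.64 in Control. In these 3 genes every IRAK4 array stood more than 2 log2 units above every Control array. RTN2, a reticulon that shapes the endoplasmic reticulum, read 10.89, 10.96 and 10.95 in IRAK4, against 7.88, 8.09 and 7.71 in Control. GAD1, glutamate decarboxylase, read 11.76, 11.82 and 11.89 in IRAK4, against 9.25, 9.31 and 9.13 in Control. Both groups were tight in these genes, and the groups did not overlap. Genes of unknown role were also among the 25 highest, with YNR014W at 2.97 ± 0.39, YKL107W at 2.96 ± 0.44 and YDL218W at 2.48 ± 0.31 above Control.

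Of 14 measured genes for hydrophilins and other stress proteins 13 rose and 0 fell, where 28.2% of all genes were called higher. Their median difference was 2.00, against 0.076 over all genes. SIP18, a phospholipid-binding hydrophilin, read 12.27, 12.29 and 11.92 in IRAK4, against 9.32, 9.74 and 9.86 in Control. SPI1, a wall protein for weak acid stress, read 11.60, 11.23 and 11.34 in IRAK4, against 9.13, 9.08 and 8.89 in Control. MSC1 read 12.82, 12.82 and 12.83 in IRAK4, against 10.28, 10.65 and 10.42 in Control. All 3 rose more than 4-fold with no overlap. HSP12, a membrane-stabilizing protein, was already near the top of the arrays in Control and rose by 0.29 ± 0.07. The lowest of the 14 was HOR7 (0.19, not called).

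Against the inactive kinase, where 19.7% of all genes were called higher and 15.3% lower in IRAK4, 12 of these 14 genes were higher in IRAK4, and 0 lower. That comparison has its own test but shares the IRAK4 arrays with the comparison against Control. GRE1 averaged 8.88 in IRAK4(KD), so that IRAK4 was 3.36 ± 0.64 higher. FMP48 was 3.52 ± 0.16 higher in IRAK4 than in IRAK4(KD). For SPI1 the difference from IRAK4(KD) was smaller, 0.67 ± 0.16, with a mean of 11.4 in IRAK4, 10.7 in IRAK4(KD) and 9.03 in Control. SPI1 is thus a gene of this list whose IRAK4(KD) value lay between the other groups.

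**Figure D2:**
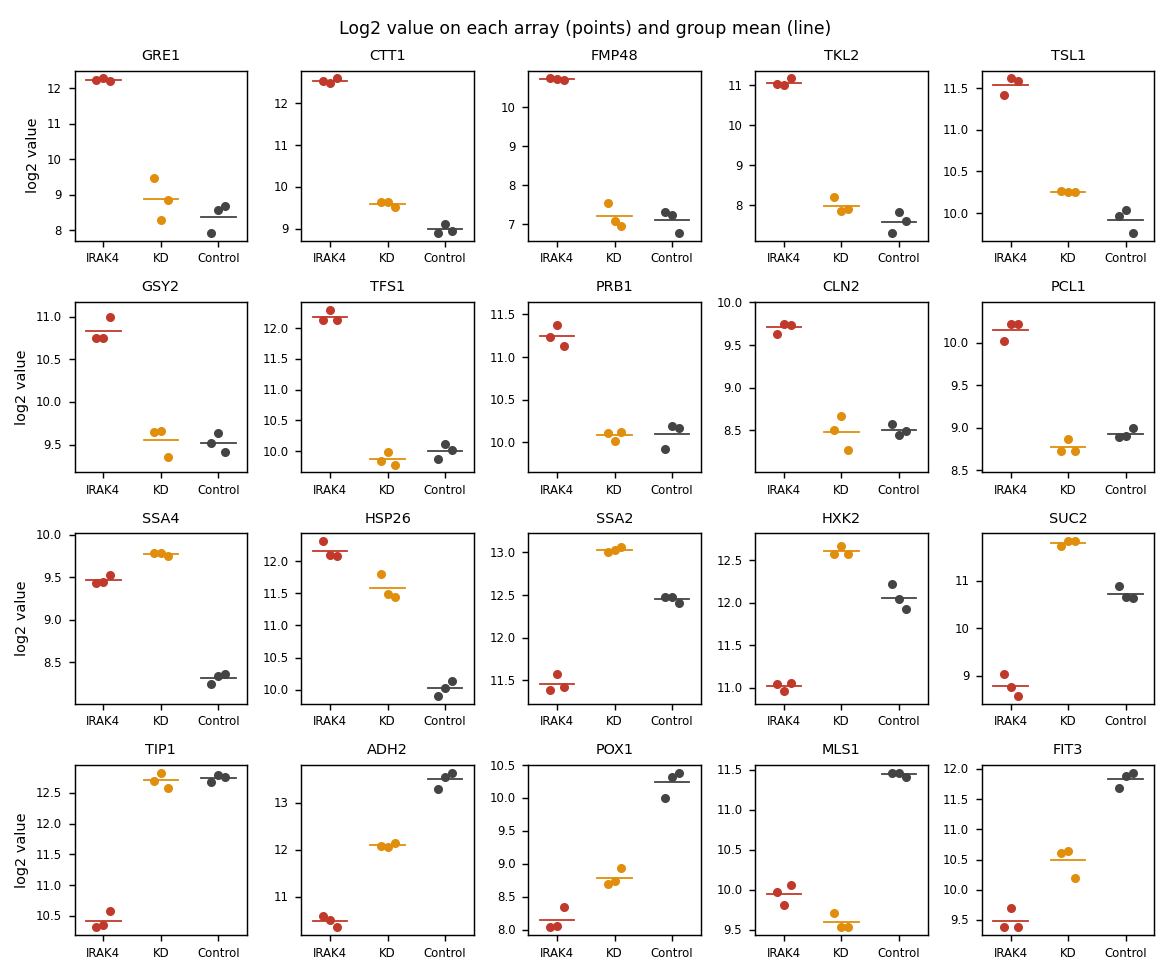
Log2 value on each of the 3 arrays (points) and their mean (line) of 20 genes in IRAK4, IRAK4(KD) (labelled KD) and Control. In GRE1, CTT1, FMP48, TKL2, TSL1, GSY2, TFS1, PRB1, CLN2 and PCL1 the IRAK4 points stand alone at the top, in SSA2, HXK2, SUC2 and TIP1 they stand alone at the bottom, and in POX1 and MLS1 the IRAK4(KD) points lie near those of IRAK4; each panel has its own axis, which does not start at 0.

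Genes for regulators of stress responses rose as well, by less. Among 16 kinases and transcription factors of the general stress response 11 rose (median 0.46) and 10 were higher in IRAK4 than in IRAK4(KD). CIN5, a transcription factor of salt tolerance, read 8.93, 9.06 and 8.91 in IRAK4, against 7.14, 7.35 and 6.94 in Control. XBP1, a repressor induced by stress and starvation, rose by 1.44 ± 0.15 and was 2.00 ± 0.15 higher than in IRAK4(KD). YAK1, a kinase that opposes PKA, read 10.32, 10.43 and 10.41 in IRAK4, against 9.18, 9.30 and 9.35 in Control. MSN4 rose by 0.71 ± 0.08 and USV1, a factor for growth on non-fermentable carbon, by 1.03 ± 0.12. For MSN2 the difference was 0.41, and its call was lost under some alternatives. HOT1, a factor of the osmotic response, was the member called lower (-0.33), and without IRAK4 replicate 1 or 2 or Control replicate 2 or 3 it was not called. Of 14 genes of osmotic stress signalling 3 rose (21.4%) and 1 fell (7.14%), against 28.2% and 16.4% of all genes. Without Control replicate 3, 1 of the 14 rose. Among them MSB2, an osmosensor, was at 0.54 ± 0.12 and SSK22, a kinase of the cascade, at -0.46 ± 0.10. The kinase HOG1 and its activator PBS2 were not called (0.00 and 0.02).

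Genes of the Ras and PKA pathway rose too, YAK1 among them. Of 19 measured genes 13 were higher than in Control (median 0.39) and 0 were lower, though 1 was called lower without IRAK4 replicate 1. Against IRAK4(KD), 11 were higher and 0 lower, with 1 lower without IRAK4(KD) replicate 1, after centring or after quantile normalization. TPK2, a catalytic subunit of PKA, read 10.10, 10.05 and 10.22 in IRAK4, against 9.13, 8.93 and 9.01 in Control, a difference of 1.10 ± 0.12. PDE1, the phosphodiesterase that removes cyclic AMP, read 9.93, 9.77 and 10.09 in IRAK4, against 8.86, 8.86 and 8.80 in Control. BCY1, the regulatory subunit that inhibits PKA, rose by 0.58 ± 0.11, and RAS2 by 0.67. Genes for positive and for negative parts of the pathway rose in the same arrays, and the catalytic subunit gene TPK3 was not called (-0.05).

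Genes for storage carbohydrates rose almost throughout. Of 9 genes of trehalose metabolism 8 rose (median 1.10) and 8 were higher than in IRAK4(KD). Trehalose is a sugar that protects proteins and membranes, and TPS1, its synthase, read 12.05, 12.09 and 12.41 in IRAK4, against 10.76, 10.74 and 10.47 in Control. TPS2, the phosphatase of the same complex, rose by 1.47 ± 0.14 and TSL1, its regulatory subunit, by 1.62 ± 0.13. NTH1, the neutral trehalase that degrades the sugar, read 11.34, 11.24 and 11.52 in IRAK4, against 10.32, 10.25 and 10.24 in Control. Enzymes of synthesis and of degradation therefore rose in the same arrays. UGP1 and PGM2, which make the UDP-glucose used for both storage sugars, rose by 1.32 ± 0.13 and 1.04 ± 0.08.

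Of 16 glycogen genes 13 rose (median 0.69) and 0 fell, and against IRAK4(KD) 12 were higher. GSY2, the main glycogen synthase, read 10.75, 10.76 and 10.99 in IRAK4, against 9.52, 9.63 and 9.41 in Control. GLC3, the branching enzyme, read 11.29, 11.32 and 11.61 in IRAK4, against 10.32, 10.36 and 10.19 in Control. GPH1, the phosphorylase that breaks glycogen down, rose by 0.96 ± 0.10 and the debranching enzyme GDB1 by 0.76 ± 0.12. GIP2, a regulatory subunit of the Glc7 phosphatase, had the largest difference of the list, 1.98 ± 0.16, with values of 7.59, 7.55 and 7.57 in IRAK4, against 5.31, 5.90 and 5.54 in Control. PCL10, a cyclin of the Pho85 kinase that restrains glycogen synthase, was not called against Control (-0.01) and was lower than in IRAK4(KD) (-0.59).

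Antioxidant genes were mixed, with more rises than falls. Of 20 genes for catalases, superoxide dismutases, peroxidases and thioredoxins 11 rose (55%, against 28.2% of all genes) and 4 fell (20%, against 16.4%). CTT1, the cytosolic catalase, read 12.52, 12.49 and 12.60 in IRAK4, against 8.89, 9.11 and 8.94 in Control. CTA1, the peroxisomal catalase, read 7.78, 7.84 and 7.70 in IRAK4, against 9.76, 10.14 and 10.25 in Control. The catalase pair thus moved in opposite directions, by 3.56 ± 0.15 for CTT1 and by -2.28 ± 0.18 for CTA1. Relative to IRAK4(KD), CTT1 was higher by 2.94 ± 0.15, while CTA1 was not called (-0.46 ± 0.18). TSA2, a minor peroxiredoxin, rose by 2.38 ± 0.57, and SRX1, the sulfiredoxin that repairs peroxiredoxins, by 1.14 ± 0.21. SOD2, the mitochondrial dismutase, rose by 0.77, and CCS1, the copper chaperone of Sod1, fell by 0.45. Of 16 genes for glutathione and related enzymes 6 rose (37.5%, against 28.2% of all genes) and 2 fell (12.5%, against 16.4%). OYE2, an NADPH oxidoreductase, fell in IRAK4 to 9.99, 9.63 and 9.68, against 11.03, 10.96 and 10.98 in Control, and GTT1, a membrane-bound glutathione transferase, rose by 1.20 ± 0.14.

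In the pentose phosphate pathway, which makes NADPH and ribose, the large rises were in minor isoenzymes. Of 15 genes 7 rose, and the median difference was 0.07, close to that of all genes. No member was called lower on the deposited values of all arrays, but 3 were without IRAK1 replicate 1, 2 after centring and 1 after quantile normalization. TKL2, the minor transketolase, read 11.03, 11.01 and 11.17 in IRAK4, against 7.30, 7.83 and 7.61 in Control, and TKL1, the main form, was not called (0.04 ± 0.10). NQM1, the minor transaldolase, read 11.39, 11.28 and 11.62 in IRAK4, against 9.02, 9.35 and 9.12 in Control, and TAL1 was not called (0.07 ± 0.13). GND2, the minor phosphogluconate dehydrogenase, rose by 3.20 ± 0.32, and GND1 was at -0.33 ± 0.20, not called. SOL4, a lactonase, rose by 2.51 ± 0.13, and its counterpart SOL3 was at -0.09 ± 0.15. ZWF1, the first enzyme of the pathway, rose by 0.56.

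Other steps of metabolism with 2 genes for the same reaction showed similar contrasts. Among 38 measured pairs, in most of which the first gene is the form induced by stress or the minor form, both genes rose in 11 and the first alone was called higher in 12. In 4 pairs the first gene rose and the second fell: CTT1 with CTA1, HSP82 with HSC82, SSA4 with SSA2, and SSE2 with SSE1. No pair showed the opposite. The pairs were written with earlier results of these arrays known, so these counts describe the pairs and test nothing. COX5B, the low-oxygen form of a cytochrome oxidase subunit, rose by 1.72 ± 0.13. COX5A, its main form, rose by 0.30. CYC7, the minor cytochrome c, rose by 1.11 ± 0.15, while CYC1 was at -0.26, not called. GPD1, the glycerol-3-phosphate dehydrogenase for osmotic stress, read 12.40, 12.43 and 12.54 in IRAK4, against 10.92, 10.92 and 10.77 in Control, and GPD2 was not called (0.19 ± 0.19). PMA2, the minor plasma membrane proton pump, rose by 2.35 ± 0.28 to 9.26, 9.27 and 9.32 in IRAK4, against 6.80, 6.99 and 7.01 in Control. The exceptions were ADH2 and ACS1, glucose-repressed first genes that fell while ADH1 and ACS2 were not called, and NTH1, which rose while NTH2 was not called. In 4 pairs the second gene alone was called lower: HXK2, OYE2, SUL1 and IDP1, the last of which lost its call under some alternatives.

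**Figure D3:**
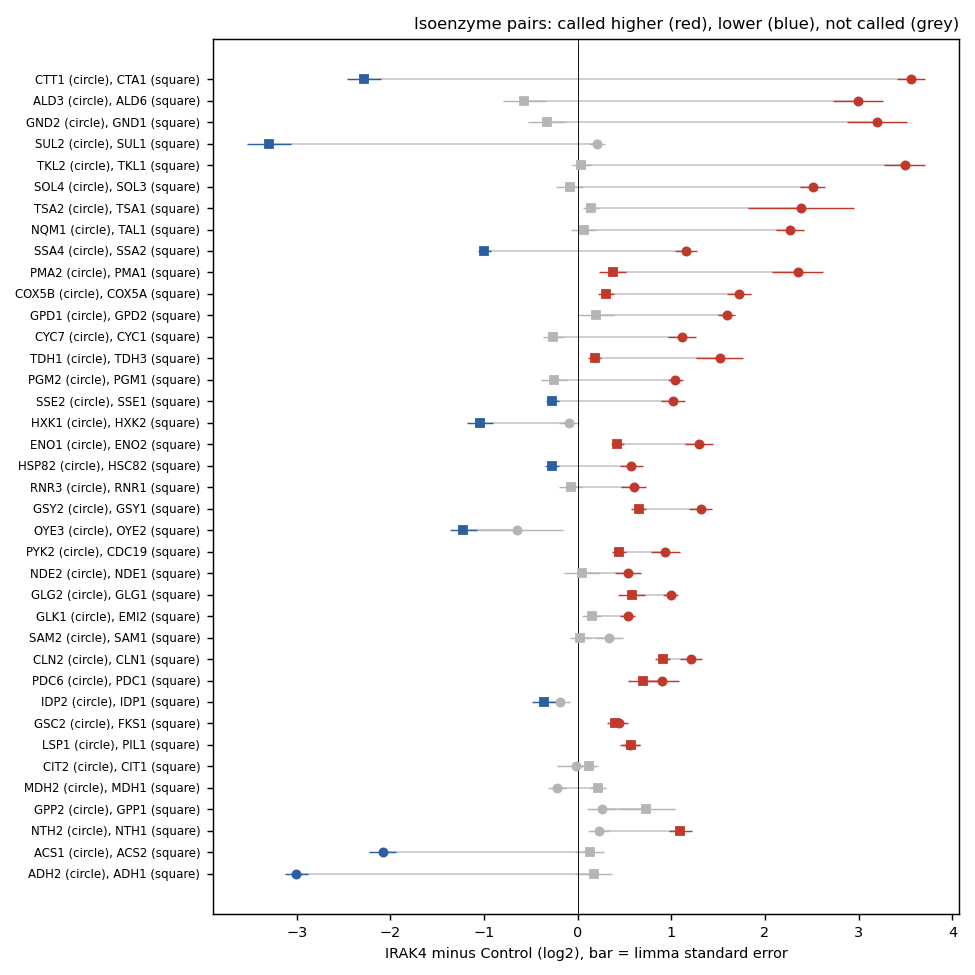
Differences IRAK4 minus Control (log2, horizontal axis) of both genes of 38 isoenzyme pairs, the first gene as a circle and the second as a square, with the limma standard error as a bar. Circles lie to the right of squares in most pairs, with ADH2 and ACS1 far to the left at -3.01 and -2.08.

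Genes of glycolysis rose over most of the pathway. Of 12 genes of its upper part and the hexose kinases 7 rose (58.3%, against 28.2% of all genes) and 1 fell (8.33%, against 16.4%). Against IRAK4(KD) 3 of the 12 were higher (25%) and 2 lower (16.7%), near the 19.7% and 15.3% of all genes. In IRAK4(KD) 8 of the 12 were higher than in Control (66.7%, against 11.7% of all genes). Of 11 genes of the lower part 10 rose (median 0.69). None of the lower part was called lower, except that 1 was without IRAK4 replicate 3, after centring or after quantile normalization. ENO1, an enolase, read 13.28, 13.34 and 13.24 in IRAK4, against 11.98, 11.90 and 12.08 in Control. GPM2, a minor homologue of phosphoglycerate mutase, rose by 1.22 and TDH1, a glyceraldehyde-3-phosphate dehydrogenase, by 1.52 ± 0.25. Against IRAK4(KD) 5 genes of the lower part were higher, including ENO1 (0.77 ± 0.15), while TDH1 (0.56 ± 0.25) was not called. In IRAK4(KD) 5 of the 11 lower genes were higher than in Control (45.5%). HXK2, the hexokinase that also takes part in glucose repression, fell in IRAK4 to 11.04, 10.96 and 11.05, against 12.22, 12.04 and 11.92 in Control. The mean of HXK2 in IRAK4(KD) was 12.6, and the difference IRAK4 minus IRAK4(KD) was -1.58 ± 0.14.

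Sugar transport and glucose repression genes went both ways. HXT5, a transporter of slow-growing cells, read 11.36, 11.38 and 11.48 in IRAK4, against 9.71, 9.78 and 9.69 in Control. HXT2, a high-affinity transporter, read 9.56, 8.39 and 9.02 in IRAK4, against 11.88, 12.07 and 12.05 in Control. HXT4 read 8.98, 8.50 and 8.79 in IRAK4, against 10.52, 10.64 and 10.63 in Control. HXT2 and HXT4 fell with no overlap, though the IRAK4 arrays of HXT2 spread over more than 1 log2 unit. Across 17 transporters and sensors 4 rose (23.5%, against 28.2% of all genes) and 5 fell (29.4%, against 16.4%). Those that rose numbered 2 after centring, 1 after quantile normalization, and 2 without any 1 of the IRAK4 arrays or without Control replicate 1. SUC2, the invertase that splits sucrose, fell by 1.94 ± 0.11 to 9.03, 8.76 and 8.58 in IRAK4, against 10.90, 10.66 and 10.63 in Control. It averaged 11.8 in IRAK4(KD), a difference IRAK4 minus IRAK4(KD) of -3.01 ± 0.11. NRG1, a repressor of glucose-repressed genes such as SUC2, averaged 9.11 in IRAK4 and 7.27 in Control, a rise of 1.83 ± 0.09. Its relative NRG2 fell by 0.99, and its difference from IRAK4(KD) was -1.14. MAL33, a maltose activator gene, fell by 1.65 ± 0.14, with a difference from IRAK4(KD) of -1.95 ± 0.14. Among the 27 genes of glucose repression and Snf1 signalling 6 rose (22.2%) and 7 fell (25.9%), against 28.2% and 16.4% of all genes.

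Genes for the use of ethanol, acetate and fatty acids were lower than in Control, and many were lower in IRAK4(KD) as well. Of 26 genes of gluconeogenesis, the glyoxylate cycle and acetate use 17 fell (median -0.58), against 16.4% of all genes, and PYC1, a pyruvate carboxylase, rose (0.52). ADH2, the alcohol dehydrogenase that consumes ethanol, read 10.60, 10.51 and 10.35 in IRAK4, against 13.29, 13.55 and 13.64 in Control. ADY2, an acetate transporter, read 7.97, 7.79 and 7.99 in IRAK4, against 10.30, 10.66 and 10.78 in Control. ACS1, acetyl-CoA synthetase, read 9.95, 9.88 and 10.13 in IRAK4, against 11.91, 12.13 and 12.17 in Control. All 3 fell more than 4-fold. The 3 genes of the methylcitrate cycle, which breaks down propionate, also fell, with ICL2 at -2.48 ± 0.34, PDH1 at -2.13 ± 0.26 and CIT3 at -2.02 ± 0.26.

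Of 20 genes of peroxisomal fatty acid oxidation 14 fell (median -0.90) and 2 rose. FAA2, a fatty acid activating enzyme, read 8.41, 8.18 and 8.50 in IRAK4, against 10.26, 10.59 and 10.63 in Control. POX1, the acyl-CoA oxidase, averaged 8.14 in IRAK4 and 10.24 in Control, a fall that the plot of single genes shows by array. LPX1, a peroxisomal lipase, fell by 1.89 ± 0.31 and PXA1, a peroxisomal transporter subunit, by 1.82. PNC1, a nicotinamidase that partly resides in peroxisomes, rose by 1.03, and so did FAA1, by 0.55. Of 26 genes for building the peroxisome 9 rose (34.6%) and 4 fell (15.4%), shares near those of all genes, with INP1, a retention factor, at 0.97 and PEX11, which divides the organelle, at -0.56.

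Many of these genes were also lower in IRAK4(KD) than in Control, where 6.00% of all genes were called lower. They numbered 18 of the 26 (69.2%, median -0.87) and 11 of the 20 of fatty acid oxidation (55%, median -0.80). Between IRAK4 and IRAK4(KD) these genes gave differences of either sign. MLS1, malate synthase, fell by 1.49 ± 0.09 against Control but stood 0.35 ± 0.09 above IRAK4(KD). ADY2 (-0.29 ± 0.20), LPX1 (-0.33 ± 0.31) and CIT3 (-0.39 ± 0.26) were not called against IRAK4(KD). MDH2, the cytosolic malate dehydrogenase, read 12.35, 12.36 and 12.41 in IRAK4, against a mean of 11.2 in IRAK4(KD) and 12.6 in Control. It was therefore 1.14 ± 0.10 higher than in IRAK4(KD) and not called against Control. The difference IRAK4 minus IRAK4(KD) was -1.61 ± 0.12 for ADH2, -1.46 ± 0.26 for PDH1 and -1.03 ± 0.13 for FAA4, a further fatty acid activating enzyme. In the list of 26 genes 6 were higher (23.1%) and 5 lower (19.2%) than in IRAK4(KD), near the 19.7% and 15.3% of all genes. The 5 became 2 or 3 without IRAK4 replicate 1 or 2 or IRAK4(KD) replicate 1 or 2. Among 20 fatty acid oxidation genes 3 were higher (15%) and 6 lower (30%).

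Genes for protein breakdown in the vacuole, the yeast lysosome, were higher. Of 13 genes for vacuolar hydrolases, other peptidases and their inhibitors 9 rose (median 0.55) and 1 fell, and 8 were higher than in IRAK4(KD). TFS1, the inhibitor of carboxypeptidase Y, read 12.13, 12.30 and 12.13 in IRAK4, against 9.87, 10.11 and 10.02 in Control. PAI3, the inhibitor of proteinase A, read 8.62, 8.69 and 8.73 in IRAK4, against 5.91, 6.25 and 5.96 in Control. PRB1, proteinase B, read 11.23, 11.37 and 11.13 in IRAK4, against 9.92, 10.19 and 10.16 in Control. The largest differences in this list were thus in inhibitors, and the proteases PRB1 (1.15 ± 0.09), APE1 (1.16 ± 0.08) and PEP4 (0.55 ± 0.07) rose beside them. TFS1 was 2.31 ± 0.11 and PRB1 1.16 ± 0.09 higher than in IRAK4(KD). LAP3, a cytosolic aminopeptidase, fell by 0.68 ± 0.13.

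Autophagy delivers cell contents to the vacuole, and 19 of its 33 genes rose (median 0.58) while 3 fell. ATG8, which coats the growing autophagosome, read 10.69, 10.65 and 10.60 in IRAK4, against 9.63, 9.46 and 9.30 in Control. ATG19, a cargo receptor, ATG9, the membrane protein of the pathway, and ATG7, the activating enzyme for Atg8, rose by 1.05, 1.05 and 1.04. ATG41 fell, with values of 9.90, 10.01 and 9.45 in IRAK4, against 10.59, 10.91 and 10.88 in Control. Against IRAK4(KD) 20 of the 33 were higher. Of 39 proteasome genes 28 rose (71.8%, against 28.2% of all genes, median 0.33) and 2 fell. PUP1, PRE5 and RPN1 were at 0.58, 0.57 and 0.57. In IRAK4(KD) 15 of the 39 were higher than in Control (38.5%, against 11.7% of all genes) and 0 lower. Of the proteasome genes 8 were higher than in IRAK4(KD) (20.5%, near the 19.7% of all genes), and 4 were without IRAK4 replicate 3 or IRAK4(KD) replicate 1 or 3. UBI4, the stress-induced polyubiquitin gene, rose by 0.64.

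The cell surface changed in several named genes. Eisosomes are furrows of the plasma membrane, and of 15 genes of eisosomes and their membrane domain 10 rose (median 0.38), 0 fell and 10 were higher than in IRAK4(KD). FMP45, a membrane protein of this domain, read 10.80, 10.94 and 10.86 in IRAK4, against 7.55, 8.04 and 7.94 in Control. YNL194C, its relative, read 9.81, 9.82 and 10.03 in IRAK4, against 7.93, 8.01 and 7.73 in Control. PIL1 and LSP1, the core eisosome proteins, rose by 0.57 ± 0.10 and 0.56 ± 0.10. HSP30, a negative regulator of the proton pump, rose by 1.37 ± 0.26 and had a similar mean in IRAK4(KD) (0.19 ± 0.26, not called).

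TIP1, a major cell wall mannoprotein, fell by 2.33 ± 0.11 to 10.31, 10.34 and 10.58 in IRAK4, against 12.69, 12.79 and 12.76 in Control. IRAK4(KD) averaged 12.7, and IRAK4 minus IRAK4(KD) was -2.29 ± 0.11. YGP1, a secreted glycoprotein of starved cells, read 12.84, 12.85 and 12.96 in IRAK4, against 10.78, 10.87 and 10.68 in Control. PIR3, a covalently bound wall protein, rose by 1.33 ± 0.23 and WSC4, a relative of the surface stress sensors, by 1.59 ± 0.13. Of 42 wall genes 16 rose (38.1%) and 5 fell (11.9%), against 28.2% and 16.4% of all genes, and 3 fell without Control replicate 1. In the cell wall integrity pathway 11 of 25 genes rose (44%, against 28.2% of all genes). None was called lower on the deposited values of all arrays, and 1 was without IRAK1 replicate 1 or after quantile normalization. SDP1, a phosphatase for the pathway's MAP kinase, rose by 1.54 ± 0.15, and BAG7, a GTPase-activating protein for Rho1, by 1.58 ± 0.12. SDP1 was 1.95 ± 0.15 and BAG7 2.01 ± 0.12 higher than in IRAK4(KD).

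**Figure D4:**
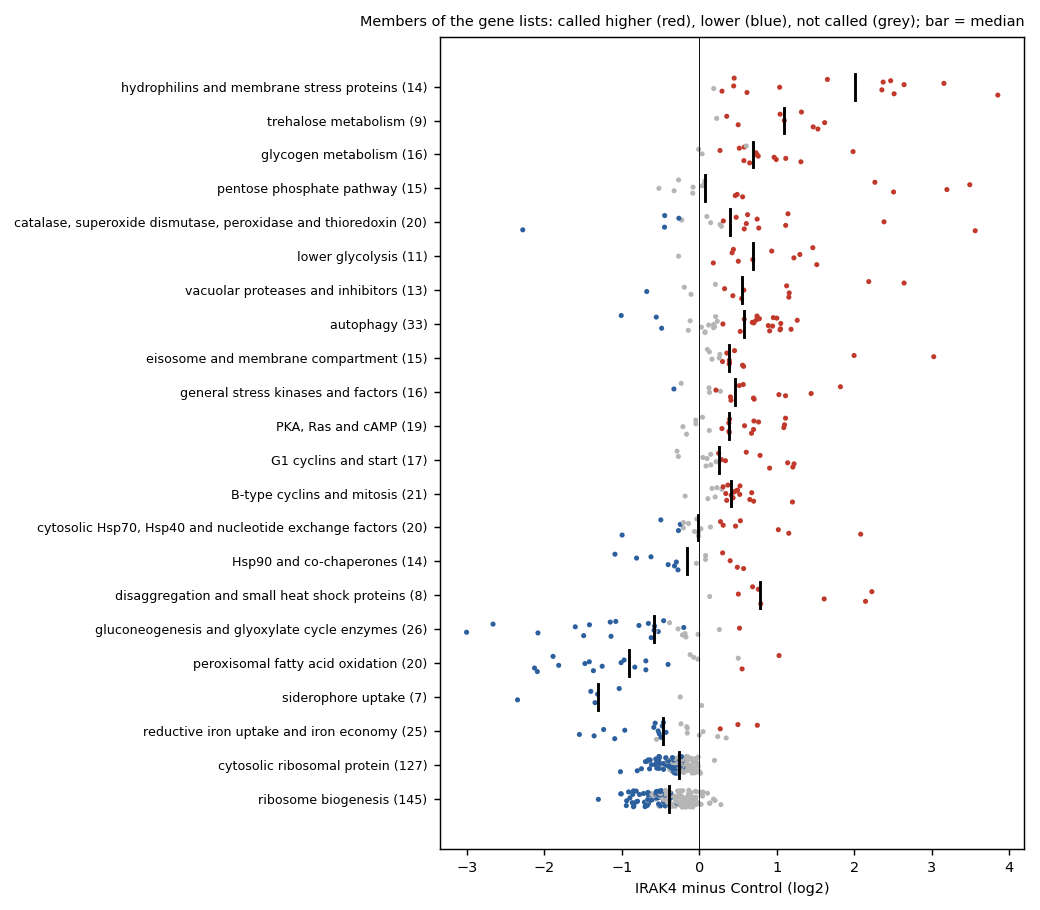
Difference IRAK4 minus Control (log2, horizontal axis) of every measured member of 22 gene lists, with the list's median as a black bar and the number of members in brackets. Most points of the uppermost lists were called higher, with medians up to 2.00 in the hydrophilins, and the medians of the gluconeogenesis, fatty acid oxidation, iron and ribosome lists at the bottom lie below 0, while most points of the ribosome lists were not called (58 of 127 and 49 of 145 were called lower).

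Chaperone genes divided between forms. SSA2, a constitutive Hsp70, fell by 1.00 ± 0.07 to 11.38, 11.57 and 11.42 in IRAK4, against 12.48, 12.48 and 12.40 in Control. SSA4, the heat-induced Hsp70, read 9.43, 9.44 and 9.53 in IRAK4, against 8.24, 8.34 and 8.36 in Control. SSA3, another induced form, read 11.49, 11.07 and 11.37 in IRAK4, against 9.38, 9.27 and 9.02 in Control. Of 20 Hsp70, Hsp40 and exchange factor genes 7 rose (35%) and 4 fell (20%), near the shares of all genes, and 4 rose without Control replicate 3. HSC82, the constitutive Hsp90, fell by 0.28 ± 0.07, and HSP82, the induced form, rose by 0.57 ± 0.13. Among 14 Hsp90 and co-chaperone genes 4 rose (28.6%, near the 28.2% of all genes) and 7 fell (50%, against 16.4%). Of 8 genes for disaggregation and small heat shock proteins 7 rose (median 0.78) and 0 fell. HSP26, a small heat shock protein, read 12.32, 12.10 and 12.08 in IRAK4, against 9.90, 10.03 and 10.13 in Control. HSP42 rose by 1.61 ± 0.11, HSP104, the disaggregase, by 0.79 ± 0.10, and HSP31, a glyoxalase, by 2.23 ± 0.41.

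Many chaperone genes were higher in IRAK4(KD) than in Control, namely 10 of the 20 Hsp70 genes, 8 of the 14 Hsp90 genes and 7 of the 8 disaggregation genes, against 11.7% of all genes. Several were lower in IRAK4 than with the inactive kinase. The difference IRAK4 minus IRAK4(KD) of SSA2 was -1.58 ± 0.07, with a mean of 13.0 in IRAK4(KD). SSA1 was at the Control level in IRAK4 (-0.01 ± 0.10) and below IRAK4(KD) (-0.88 ± 0.10). HSC82 was at -0.92 ± 0.07 and HSP82 at -0.53 ± 0.13 from IRAK4(KD). BTN2, which sorts misfolded proteins, read 9.39, 9.28 and 9.42 in IRAK4, against a mean of 10.8 in IRAK4(KD) and 9.23 in Control. In the 14 Hsp90 genes 0 were higher and 7 lower than in IRAK4(KD). In the 20 Hsp70 genes 10 were lower, a number that was 6 without IRAK4 replicate 1 or 2 or IRAK4(KD) replicate 1 or 2. HSP104 (0.00 ± 0.10) and HSP26 (0.58 ± 0.23) were not called against IRAK4(KD), whereas HSP31 was 2.05 ± 0.41 higher.

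Cyclin genes rose in IRAK4. Cyclins bind the kinase Cdc28 to drive the cell cycle, with Cln1 and Cln2 acting at its start and Clb1 and Clb2 in mitosis. Of 17 genes of the G1 phase 9 rose (median 0.25), and 10 were higher than in IRAK4(KD). None was called lower against Control or IRAK4(KD), although without IRAK1 replicate 1 the lower calls numbered 1 and 2. CLN2 read 9.63, 9.75 and 9.74 in IRAK4, against 8.57, 8.44 and 8.49 in Control. CLN1 read 9.57, 9.63 and 9.76 in IRAK4, against 8.78, 8.75 and 8.71 in Control. PCL1, a G1 cyclin of the kinase Pho85, read 10.01, 10.22 and 10.22 in IRAK4, against 8.89, 8.91 and 8.99 in Control. PCL2 rose by 1.14 ± 0.12. In CLN2, CLN1 and PCL1 the groups did not overlap, and IRAK4(KD) lay near Control, with IRAK4 higher by 1.23 ± 0.11 in CLN2, 0.90 ± 0.08 in CLN1 and 1.38 ± 0.08 in PCL1. SWI4 and SWI6, the activators of these cyclin genes, were not called (0.04 and -0.27).

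Of 21 genes of B-type cyclins and mitosis 15 rose (median 0.41) and 0 fell, or 1 after quantile normalization, while 6 were higher than in IRAK4(KD) (28.6%, against 19.7% of all genes). CLB1 read 10.50, 10.43 and 10.61 in IRAK4, against 9.43, 9.29 and 9.22 in Control. CLB2 rose by 0.70 ± 0.14 and CDC28 itself by 0.78 ± 0.10. Genes of G1 and of mitosis thus rose in the same arrays, and the position of the cells in the cycle was not measured. Of 10 histone genes, which peak in S phase, 0 rose, and HHT1 was called lower (-0.42). With Control replicate 3 left out the lower calls numbered 0, with IRAK1 replicate 1 left out 4, and after centring or quantile normalization 2. Among 17 genes of nucleotide reduction and DNA damage 11 rose (median 0.41) and 0 fell. DUN1, a checkpoint kinase, read 9.02, 9.01 and 9.13 in IRAK4, against 7.92 to 8.03 in Control, and IRAK4(KD) averaged 8.53. RNR2 and RNR3, subunits of ribonucleotide reductase, rose by 0.69 and 0.60 ± 0.13, and RNR1 was not called (-0.07).

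Iron uptake genes fell. Of 7 genes for siderophores, the iron carriers that yeast takes up, 5 fell (median -1.31) and 0 rose. FIT3, a wall protein that retains siderophores, read 9.39, 9.70 and 9.38 in IRAK4, against 11.69, 11.88 and 11.94 in Control. SIT1, a siderophore transporter, read 9.73, 9.80 and 9.63 in IRAK4, against a mean of 11.1 in Control. Of 25 genes of reductive uptake and iron economy 13 fell (median -0.46) and 3 rose. FTR1, the high-affinity permease, fell by 1.09 ± 0.11, and TIS11, which destabilizes mRNAs of iron-using proteins when iron is short, by 1.24 ± 0.24. CCC1, which stores iron in the vacuole, rose by 0.75 ± 0.12. Genes that take iron in and CCC1 thus moved in opposite directions. Many iron genes were also lower in IRAK4(KD) than in Control, where 6.00% of all genes were called lower. They numbered 3 of the 7 siderophore genes (42.9%) and 11 of the 25 (44%). Between IRAK4 and IRAK4(KD), 3 of the 7 siderophore genes were lower in IRAK4 and 0 higher. Relative to IRAK4(KD), SIT1 was at -0.90 ± 0.10 and FTR1 at -0.72 ± 0.11, and ARN2, a further siderophore transporter, was not called there (-0.23 ± 0.13). Of the 25 genes 4 were higher (16%) and 5 lower (20%) than in IRAK4(KD), against 19.7% and 15.3% of all genes. The lower calls numbered 3 without IRAK4 replicate 3 or IRAK4(KD) replicate 3 and 9 without IRAK1 replicate 1.

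Other nutrients gave smaller or mixed groups. SUL1, a sulfate permease, read 4.43, 4.40 and 4.12 in IRAK4, against 7.05, 7.65 and 8.13 in Control, so its IRAK4 values lie near the low end of the arrays and the size of its fall is uncertain. SUL1 was not called against IRAK4(KD), where its difference was 0.58. The second permease SUL2 was not called against Control (0.20). PHO84, the high-affinity phosphate permease, read 6.74, 6.39 and 6.46 in IRAK4, against 8.41, 8.59 and 8.74 in Control. PHO5, a secreted acid phosphatase, rose by 1.26 ± 0.13, so permease and phosphatase of the phosphate regulon went in opposite directions. CAR1, arginase, fell by 1.52 ± 0.17, and CHA1, the serine and threonine deaminase, rose by 2.22 ± 0.36. CHA1 was not called against IRAK4(KD) (0.56 ± 0.36). In the zinc regulon YOR387C and VEL1 stood at the Control level in IRAK4 (0.02 ± 0.27 and 0.25 ± 0.33), and were lower than in IRAK4(KD) (-3.51 ± 0.27 and -2.55 ± 0.33). IZH4, a membrane protein linked to zinc, fell by 1.02 ± 0.16 and was also lower than in IRAK4(KD) (-1.14 ± 0.16). CRS5, a metallothionein, rose by 1.15 ± 0.26, while the copper permease CTR1 was not called against Control (-0.28 ± 0.19) and was lower than in IRAK4(KD) (-1.26 ± 0.19).

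Amino acid synthesis was lower in part. Of 48 genes with roles in amino acid synthesis under the activator Gcn4 19 fell and 4 rose (median -0.15). The shares were 39.6% lower and 8.33% higher, against 16.4% and 28.2% of all genes. BAT2, a cytosolic aminotransferase, and TRP4, of tryptophan synthesis, fell by 1.04 and 1.03, and LYS9, of lysine synthesis, rose by 0.89. ADE2 rose by 0.88 ± 0.12. In the strain ADE2 carries a nonsense mutation. Among 23 genes of inositol and phospholipid synthesis 6 rose (26.1%) and 5 fell (21.7%), near the 28.2% and 16.4% of all genes. INO1, which makes inositol phosphate and is induced when inositol is short, read 10.28, 10.17 and 10.26 in IRAK4, against 12.11, 11.80 and 11.91 in Control. Its difference from IRAK4(KD) was -2.17 ± 0.27, and INO2, its activator, fell by 0.45. Of 29 ergosterol genes 10 rose (34.5%, against 28.2% of all genes) and 5 fell (17.2%, against 16.4%), and 6 rose without IRAK4 replicate 3.

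Part of the genes for cytosolic ribosomes and their assembly fell, by small amounts. Of 127 cytosolic ribosomal protein genes 58 fell (45.7%, against 16.4% of all genes, median -0.27) and 69 were not called. The number that fell was 90 without IRAK1 replicate 1. None was called higher in the fit of all arrays and 1 was without IRAK1 replicate 1. RPL4B read 11.14, 11.29 and 10.83 in IRAK4, against 11.87, 11.84 and 11.95 in Control, and RPS22B read 10.97, 10.86 and 11.17 in IRAK4, against 11.71, 11.70 and 11.67 in Control. Against IRAK4(KD) 62 were lower (median -0.27). That number was 35 after quantile normalization, 94 without IRAK1 replicate 1, 40 without IRAK4 replicate 1, and 33 and 41 without IRAK4(KD) replicates 2 and 3. Many ribosomal proteins are encoded by pairs of near-identical genes that an array probe may not separate, so single members are uncertain. Of 145 ribosome biogenesis genes 49 fell (33.8%, median -0.39) and 96 were not called. The lower calls numbered 96 without IRAK1 replicate 1, 91 in a fit of the 6 arrays compared, 26 without IRAK4 replicate 2, and 32 and 25 without Control replicates 2 and 3. LOC1, a ribosome assembly factor, read 9.14, 9.01 and 9.17 in IRAK4, against 10.29, 10.04 and 10.03 in Control. Of the 145 genes 9 were lower than in IRAK4(KD), which was 56 without IRAK1 replicate 1 and 2 to 4 without IRAK4 replicate 2 or any IRAK4(KD) array. Of 69 mitochondrial ribosomal protein genes 15 fell (21.7%) and 1 rose (1.45%). Of 49 genes for translation factors and tRNA synthetases 11 fell (22.4%), 3 rose (6.12%) and 35 were not called. Without Control replicate 1, 7 of the 49 fell. In both lists the share that fell was near the 16.4% of all genes, and the share that rose was below the 28.2% of all genes. The 3 of the 49 that rose numbered 0 after centring and 9 without IRAK1 replicate 1, and from 0 to 1 without IRAK4 replicate 1 or 3 or Control replicate 2 or 3.

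Across all genes, IRAK4 and IRAK4(KD) differed in 1904 genes (34.9% of those tested), 1071 higher (19.7%) and 833 lower (15.3%) in IRAK4. A difference of at least 2-fold was found in 188 genes (3.45%), 143 higher (2.62%) and 45 lower (0.826%). IRAK4(KD) itself differed from Control in 967 genes (17.7%), 640 higher (11.7%) and 327 lower (6.00%). FDH1, formate dehydrogenase, averaged 6.56 in IRAK4, 8.71 in IRAK4(KD) and 9.02 in Control. RGI2, a respiratory growth protein, read 8.29, 7.77 and 7.77 in IRAK4, against a mean of 10.1 in IRAK4(KD) and 9.79, 10.07 and 10.06 in Control. HBN1, similar to bacterial nitroreductases, fell by 1.62 ± 0.25, with a difference from IRAK4(KD) of -2.09 ± 0.25. In FDH1, RGI2 and HBN1 the IRAK4 arrays lay below those of both other groups.

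**Figure D5:**
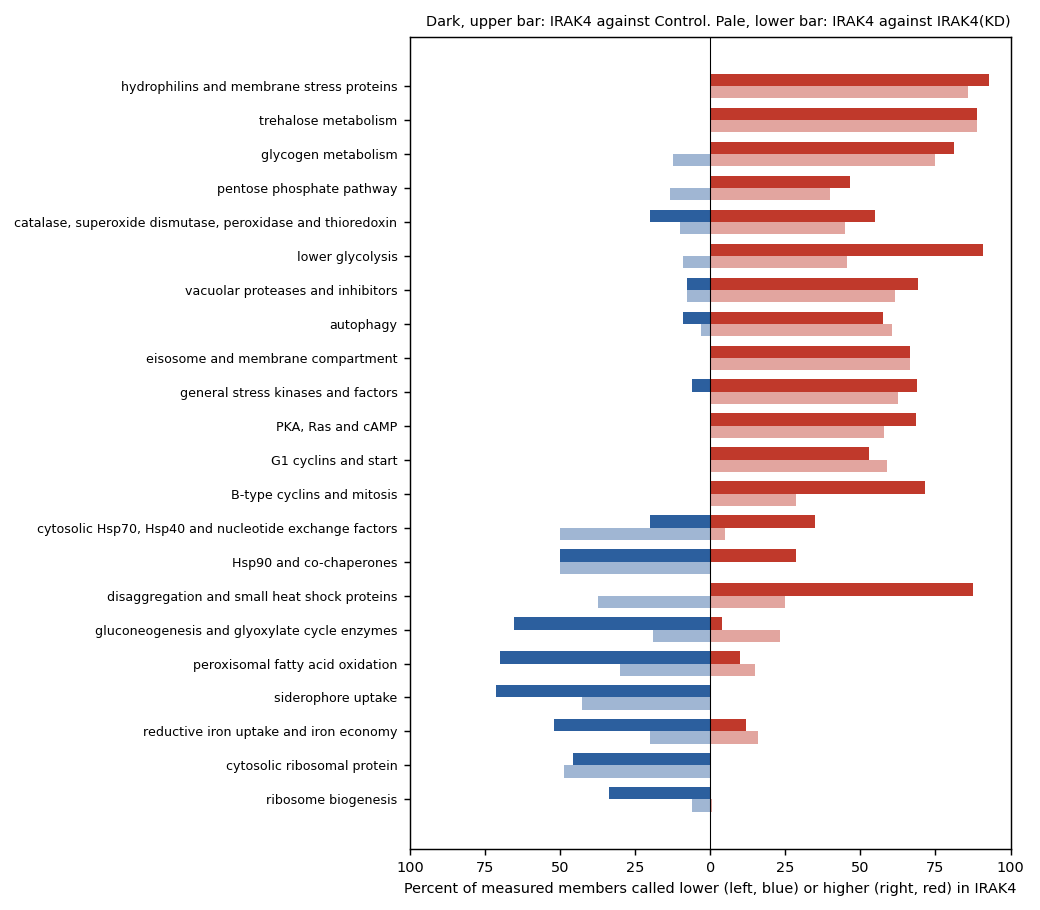
Percent of the measured members of 22 gene lists called higher (right, red) or lower (left, blue) in IRAK4, against Control (dark, upper bar of each pair) and against IRAK4(KD) (pale, lower bar). For the lists from hydrophilins to autophagy both bars reach far to the right, and for the chaperone, carbon and iron lists the bars differ; both comparisons use the same IRAK4 arrays.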

How the data were processed

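Messenger RNA of YPH499 yeast was measured on Affymetrix arrays, 3 per group. Per the submitters' processing notes, the authors made the deposited log2 signals with GCRMA, which corrects background and summarizes probes. Its version is not given in the sources used here. No detection call was used, so low values are not marked as absent.

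Of 5716 probe sets 5498 matched 1 gene in the platform annotation. The other 218 were left out, and 12 symbols were updated through RefSeq (assembly R64). For 47 genes the probe set with the highest mean over the 15 arrays was kept, leaving 5449 genes. For 112 of them it is of a kind that may match several transcripts, and none of those is named here. Values were fitted as deposited, on all 15 arrays as 5 group means, with limma 3.58.1 in R 4.3.3 (default eBayes, two-sided, Benjamini-Hochberg over all genes, threshold 0.05).

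The comparison, the 62 gene lists and the isoenzyme pairs were chosen with earlier results of these data known. Lists are described by counts and medians. After values had been seen, FMP48 left the eisosome list and UBC8 the vacuolar list as misplaced, and KDX1 replaced MLP1 in the wall integrity list. Named genes are the 25 highest and lowest called genes with non-overlapping arrays, the 10 highest and lowest against IRAK4(KD), members of lists of up to 20 genes, up to 5 called members in each direction of larger lists, and the genes of the pairs. The procedure was tested on simulated data. Alternatives were other scalings, filters, weights and left-out arrays. Promoter motifs were not analysed here. Plots used matplotlib 3.10.9 under Python 3.11.15.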

Additional observations from a re-analysis of the deposited data

How the results depend on the processing

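With 3 arrays a group, differences near 0.4 log2 often sit at the edge of the threshold, and GCRMA values near the low end of the arrays are uncertain. For IRAK4 minus Control, 284 genes (177 higher, 107 lower) were called and at least 2-fold; for IRAK4 minus IRAK4(KD), 188 (143 higher, 45 lower). Array weights, whose estimation did not converge fully, gave 1561 lower calls against Control, and 2890 calls with 1520 lower against IRAK4(KD). Without IRAK1 replicate 1, 3042 genes were called against Control and 2548 against IRAK4(KD). Leaving out 1 array of the compared groups gave 1839 to 2142 calls against Control (1165 to 1471 higher, 637 to 796 lower) and 1493 to 1682 against IRAK4(KD) (843 to 995 higher, 580 to 839 lower). The other alternatives kept these counts within 1.5 times. Of 502 named genes called against Control, 407 were called in the same direction under all 15 alternatives, 95 lost the call under at least 1, and 0 changed sign. With a replicate block, 2345 genes were called against Control (1480 higher, 865 lower) and 1823 against IRAK4(KD) (1028 higher, 795 lower). Deviations from the group mean of same-numbered IRAK4 and Control arrays correlated at -0.094, -0.027 and -0.382, and those of IRAK4 and IRAK4(KD) arrays at 0.014, -0.210 and -0.412. Between arrays of unlike number the highest values were 0.330 and 0.406. No positive correlation by replicate number was thus seen. With 3 arrays a group these values depend on each other, so they cannot show whether same-numbered cultures were handled together. The list and gene alternatives for IRAK4 minus IRAK4(KD) were chosen after seeing the data. The planned promoter motif alternative was not run.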

Other observations

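In glycerol metabolism 6 of 12 genes rose (50%, against 28.2% of all genes) and 3 fell (25%, against 16.4%) against Control. GCY1, a glycerol dehydrogenase, read 12.41, 12.37 and 12.53 in IRAK4, against 11.59, 11.65 and 11.49 in Control, a rise of 0.86 ± 0.07 beside that of GPD1. GUT1, the glycerol kinase that starts glycerol use, fell by 1.08 ± 0.19. Among 39 genes of the respiratory chain and ATP synthase 13 rose (33.3%, against 28.2% of all genes), and 20 did without IRAK1 replicate 1. NDE2, an external NADH dehydrogenase, rose by 0.54 ± 0.14 and was 1.70 ± 0.14 higher than in IRAK4(KD). In the plasma membrane proton pump list 5 of 8 genes rose (62.5%, against 28.2% of all genes). PTK2, a kinase that activates the pump, was at 0.75 ± 0.10 and PMA1, the main pump, at 0.37 ± 0.14.

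Of 30 genes of pheromone response and mating 10 rose (33.3%) and 3 fell (10%), against 28.2% and 16.4% of all genes. Without IRAK4 replicate 2 or 3 or Control replicate 2, 1 of the 30 fell. MFA2, one of the genes of the pheromone that a cells make, read 8.94, 8.83 and 8.84 in IRAK4, against a mean of 10.2 in IRAK4(KD) and 9.73, 9.67 and 9.51 in Control. MFA1, the other gene of that pheromone, was at -0.49 ± 0.15 from Control, a call lost without IRAK4 replicate 2 or 3 or Control replicate 1 or 2, and at -1.01 ± 0.15 from IRAK4(KD). BAR1, the protease that degrades the opposite pheromone, was at -0.39 ± 0.13 from Control, a call lost without IRAK4 replicate 2 or 3 or Control replicate 2 or 3, and at -1.03 ± 0.13 from IRAK4(KD). HBT1, a protein of the mating projection, rose by 2.52 ± 0.21. Of 26 genes of meiosis and sporulation 9 rose (34.6%) and 4 fell (15.4%), near the 28.2% and 16.4% of all genes, several at low levels, and with genes of mean under 6 left out the numbers were 5 and 2. IME1, the initiator of meiosis, fell by 0.74 ± 0.15 and was not called against IRAK4(KD) (0.33 ± 0.15). Of 69 mitochondrial ribosomal protein genes 33 were lower than in IRAK4(KD) (47.8%), against 15.3% of all genes. In IRAK4(KD) 17 of the 69 were higher than in Control (24.6%, against 11.7% of all genes). Their median difference was 0.21 for IRAK4(KD) minus Control and -0.09 for IRAK4 minus Control. Of 499 genes without a standard name 146 rose (29.3%) and 62 fell (12.4%) against Control, near the shares of all genes.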
